A study of Homo sapiens with 6 samples.

Results

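The SR splicing factor family was examined by RNA sequencing in HCT116, an established line of human colorectal cancer cells. The members were SRSF1, SRSF2, SRSF3, SRSF4, SRSF5, SRSF6, SRSF7, SRSF9, SRSF10 and SRSF11, chosen by symbol. All 10 had a row among the 26255 genes of the expression files, and all 10 were among the 12203 genes tested. There were 3 groups of 2 libraries: parent HCT116 cells, HCT116 cells treated with siLINC01534-1 and HCT116 cells treated with siLINC01534-2. Both are small interfering RNAs (siRNAs) designed against LINC01534, a long noncoding RNA. The siRNAs were delivered with a lipid reagent and no source used here describes a transfection of the parent cells. Libraries of cells given a negative control siRNA were not analysed here, so transfection and the siRNAs cannot be told apart. No label says that the libraries of a group came from separate cultures, so p-values measure the spread between these libraries, which may be technical.

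SR proteins are RNA-binding proteins with a domain rich in arginine and serine repeats. They bind exonic enhancer sequences in pre-mRNA and help the spliceosome to choose splice sites, and several also take part in mRNA export and translation. Kinases of the SRPK and CLK families phosphorylate the arginine-serine domain, which controls their location and activity. Many SR genes limit their own output through an alternative exon that carries a premature stop codon, called a poison exon, whose inclusion sends the transcript to nonsense-mediated decay.

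The GENCODE annotation of GRCh37 lists such an exon, absent from the canonical transcript, for 6 of the 10 members: SRSF3, SRSF4, SRSF6, SRSF7, SRSF9 and SRSF11. Only internal exons that hold the stop codon of a decay-annotated transcript and do not overlap a canonical exon were counted. SRSF1, SRSF2, SRSF5 and SRSF10 have none by this rule, but have 3, 2, 1 and 2 decay-annotated transcripts. The FPKM does not tell these from coding transcripts either. The end of the reading frame in the longest such exon is shown for SRSF3, SRSF4, SRSF6 and SRSF7, because the FPKM of a gene sums its transcripts, so that coding transcripts and those with these exons cannot be told apart in the values that follow. The sequences are from GRCh37 on the strand of the gene, 5′ to 3′, with the premature stop codon in capitals. The exon of SRSF3 spans chr6:36567598-36568053 on the plus strand and has 456 nt. That of SRSF4 spans chr1:29492402-29492576 on the minus strand and has 175 nt. That of SRSF6 spans chr20:42087793-42088060 on the plus strand and has 268 nt, and that of SRSF7 spans chr2:38976040-38976488 on the minus strand and has 449 nt.
SRSF3: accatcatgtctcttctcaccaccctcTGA
SRSF4: ggagaggttcggttcttacaaggaaaaTGA
SRSF6: gccatgacgacagcagccttttgccatTAG
SRSF7: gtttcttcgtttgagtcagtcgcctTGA

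Expression is given as FPKM, a read number scaled to both the length of the transcript and the size of the library. The steps between low values, worth 1 read, put the depth at about 8690000 to 10400000 reads per library. With the length of the canonical GENCODE transcript, this places about 860 to 7300 reads behind a member in a library. The counting error would then be 1.3% to 3.4%. The transcript lengths behind the FPKM are not known, so these numbers are rough. The squared difference between the 2 libraries of a group was on average 1.75 to 1.97 times that of counting error alone over 6897 genes. For this average the differences were centred on their median and the largest ratios were capped. The targeted LINC01534 had an FPKM of 0.285 and 0.571 in parent. In the libraries labelled siLINC01534-1 it was listed at 0 and 0.283, and in those labelled siLINC01534-2 at 0.66 and 0.551. The latter do not lie below parent. All 6 values are under 1 FPKM and rest on few reads, so they cannot show whether either siRNA reduced its target. The groups are called by their labels. Of 9 markers of colorectal epithelium, 5 were above 10 FPKM in all 6 libraries, while VIL1 and LGALS4 were under 1 FPKM. KRT20 was at 0.211 to 1.12 FPKM and CDX2 at 6.89 to 9.89 FPKM. Of 9 markers of other cell types, 7 were under 1 FPKM in all 6 libraries, and CD3E and DCN were at 0. The summed FPKM of the 9 was 6.12 to 7.04 in parent, 9.02 to 9.35 with siLINC01534-1 and 9.99 to 10.6 with siLINC01534-2, nearly all of it from CD68 and COL1A1. Their part in the results was not tested.

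In parent cells the family spanned a wide range of levels. SRSF9 (247 ± 6.45 FPKM, SD, n = 2) and SRSF2 (244 ± 4.81) were the highest and their libraries overlapped. SRSF3, SRSF1, SRSF5, SRSF6, SRSF7, SRSF11, SRSF4 and SRSF10 followed in this order, and every neighbouring pair of these lay apart. SRSF10 was the lowest at 33.1 ± 0.448 FPKM, above 76.0% of all tested genes, while SRSF9 was above 97.0% of them. The order was the same with siLINC01534-1. With siLINC01534-2, SRSF5 stood above SRSF3 and SRSF1, and its libraries overlapped those of SRSF3. The summed FPKM of the 10 genes was 1332.1 and 1346.5 in the parent libraries, 1130.6 and 1120.6 with siLINC01534-1, and 1229.5 and 1201.1 with siLINC01534-2. The sum was thus lowest in the siLINC01534-1 libraries, at 0.84 times the parent mean, and 0.907 times the parent mean with siLINC01534-2.

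**Figure D1:**
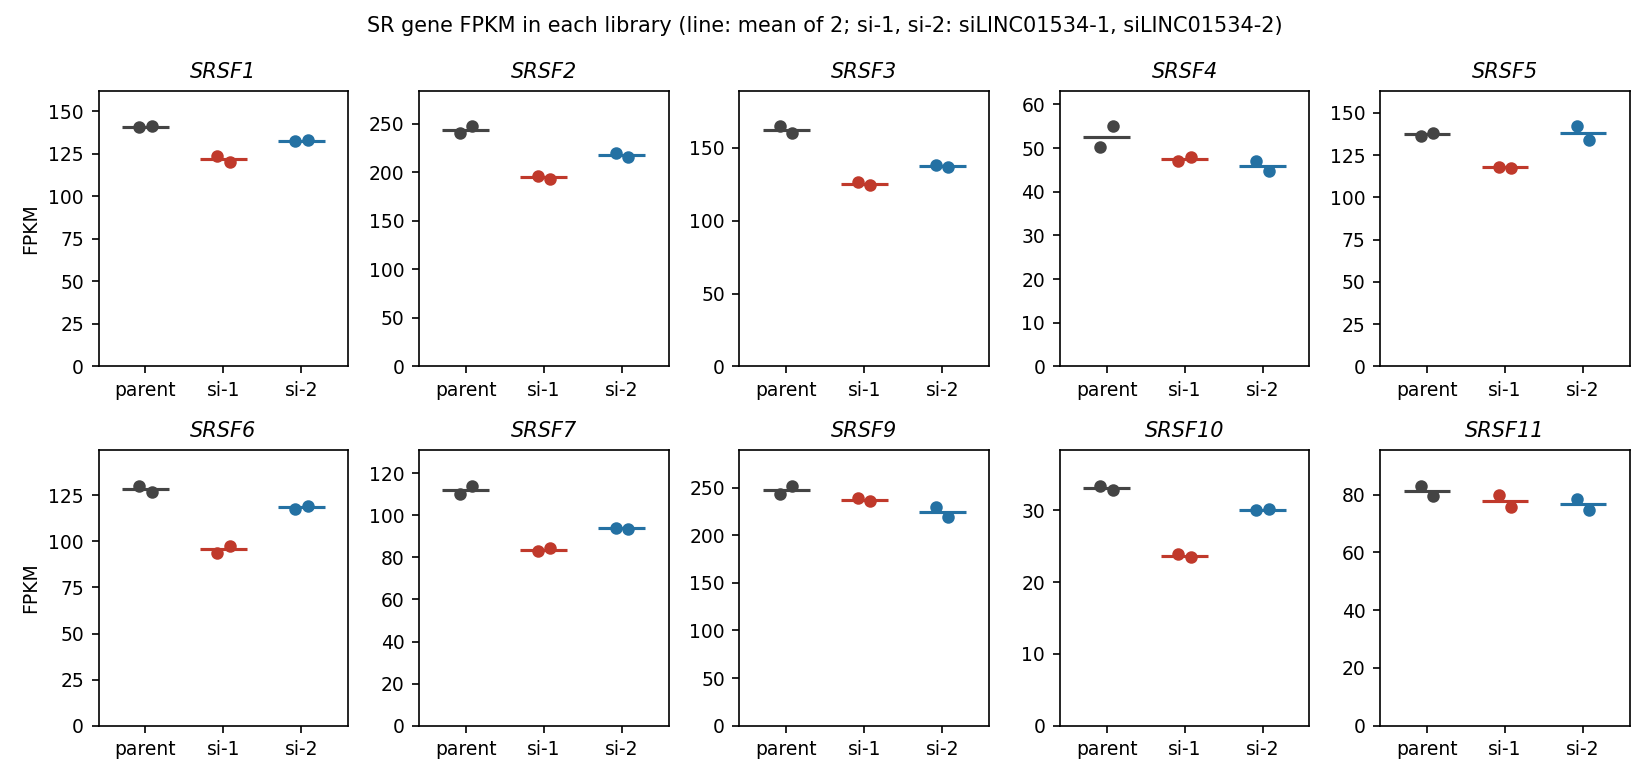
FPKM of each SR gene (vertical axis, from 0, a separate scale for each gene) in the 2 libraries of parent, siLINC01534-1 (si-1) and siLINC01534-2 (si-2) cells. Points are libraries and lines are the means of 2. SRSF10 falls from 33.1 FPKM in parent to 23.7 with siLINC01534-1, while the SRSF11 libraries of parent and siLINC01534-1 overlap.

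With siLINC01534-1, 7 of the 10 members were lower than in parent past the threshold of an adjusted p of 0.05 (limma on log2(FPKM + 1), Benjamini-Hochberg over the 12203 genes, two-sided). Among all tested genes, 24.5% were lower past the threshold in this comparison. This share and the later ones over all tested genes are not matched to the members for level. Under a filter of 5 FPKM, 2679 of 9106 tested genes were lower here, beside the same 7 members. The 7 were SRSF1, SRSF2, SRSF3, SRSF5, SRSF6, SRSF7 and SRSF10. With siLINC01534-2, 3 of 10 were lower, SRSF2, SRSF3 and SRSF7, beside 11.8% of all tested genes. Under the filter of 5 FPKM, SRSF10 was added, which made 4 of 10, beside 1455 of 9106 tested genes. The count of members with siLINC01534-2 was 5 when the libraries were scaled to 1 sum without short RNA genes, beside 1791 of 11966 tested genes. With the replicate number as a block it was 2, SRSF3 and SRSF7, beside 1005 of 12203 tested genes. The same 2 passed in limma without the trend, beside 1154 of 12203. In the deposited scaling without siLINC01534-2 replicate 2, the log2 differences of SRSF2, SRSF3 and SRSF7 with siLINC01534-2 were -0.15, -0.23 and -0.25. No member was higher past the threshold in either comparison, where 2662 (siLINC01534-1) and 1351 (siLINC01534-2) of all 12203 tested genes were. None was higher at an unadjusted p under 0.05 with limma, and the share of all tested genes at that level was not counted. Both siLINC01534-1 libraries lay below both parent libraries for 9 of 10 members, against 38.3% of tested genes, and the same held for 9 of 10 members with siLINC01534-2, against 32.7%. The median log2 difference of the members was -0.27 with siLINC01534-1, where that of all tested genes was 0.00031. With siLINC01534-2 it was -0.14, and 0.0018 over all tested genes. The comparisons share the parent libraries, so they are not independent of each other. In bulk RNA, fewer cells of a kind and less RNA per cell cannot be told apart.

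**Figure D2:**
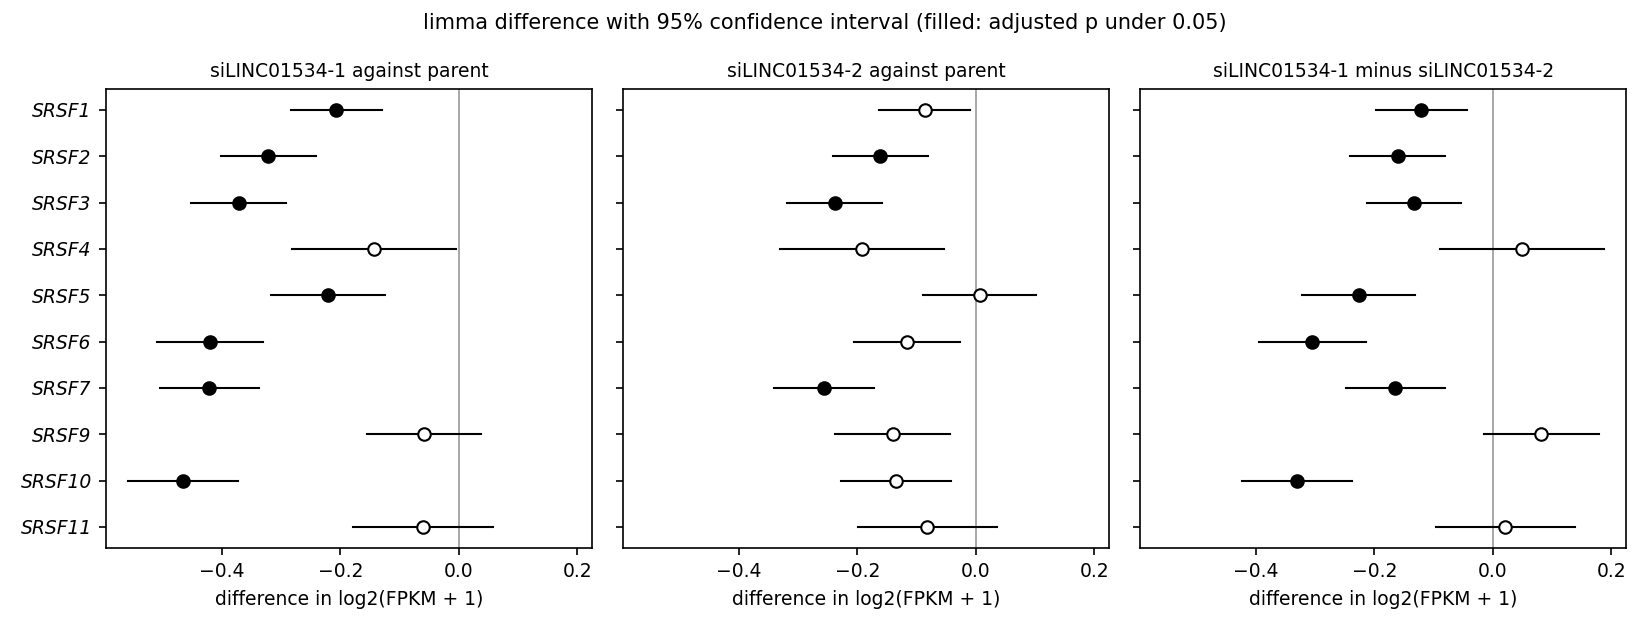
Difference in log2(FPKM + 1) of each SR gene (horizontal axis) with siLINC01534-1 against parent, with siLINC01534-2 against parent and between the siRNAs. Bars are 95% confidence intervals from limma and filled points have an adjusted p under 0.05. The differences with siLINC01534-1 run from -0.47 for SRSF10 to -0.06 for SRSF9 and SRSF11.

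SRSF3 and SRSF7, which have a single RNA recognition motif and serve as adaptors for mRNA export, were lower with each siRNA. SRSF3 was at 165 and 160.1 FPKM in the parent libraries, 126 and 124 with siLINC01534-1, and 138 and 137 with siLINC01534-2. All 4 siRNA libraries lay below both parent libraries, those of siLINC01534-1 being the lowest. The log2 difference from parent was -0.37 ± 0.032 (SE) with siLINC01534-1 (limma, adjusted p = 0.00062) and -0.24 ± 0.032 with siLINC01534-2 (limma, adjusted p = 0.0076). SRSF7, which also carries a zinc knuckle, was at 110.4 and 114 FPKM in the parent libraries, 82.8 and 84.2 with siLINC01534-1, and 93.9 and 93.6 with siLINC01534-2. The 3 groups did not overlap. Its difference was -0.42 ± 0.034 with siLINC01534-1 (limma, adjusted p = 0.00048) and -0.26 ± 0.034 with siLINC01534-2 (limma, adjusted p = 0.0071). SRSF7 passed the threshold with siLINC01534-2 under every alternative run, and SRSF3 under all but the one without siLINC01534-2 replicate 2.

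SRSF2, an SR protein that acts mainly in the nucleus, was at 240.3 and 247 FPKM in the parent libraries, 196 and 193 with siLINC01534-1, and 220.0 and 216 with siLINC01534-2. The 3 groups lay apart, with parent the highest. The difference was -0.32 ± 0.032 with siLINC01534-1 (limma, adjusted p = 0.001) and -0.16 ± 0.032 with siLINC01534-2 (limma, adjusted p = 0.022). The call with siLINC01534-2 was lost without either parent library or either siLINC01534-2 library (adjusted p 0.065 to 0.098), and in limma without the trend (adjusted p = 0.064). SRSF2 overlaps MFSD11 on the opposite strand, which was at 24.8 FPKM in parent, and the microRNA gene MIR636 on its own strand. The libraries were stranded, but the strand setting of the counting is not given in the sources used here.

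SRSF1 and SRSF9 are close relatives with a pair of RNA recognition motifs, and SRSF1 is a known proto-oncogene. SRSF1 was at 141 and 141 FPKM in the parent libraries, 123 and 120.3 with siLINC01534-1, and 132 and 133 with siLINC01534-2. The groups did not overlap, and its difference from parent was -0.21 ± 0.031 with siLINC01534-1 (limma, adjusted p = 0.0038) and -0.09 ± 0.031 with siLINC01534-2, which did not pass (limma, adjusted p = 0.1). SRSF9 was at 243 and 252 FPKM in the parent libraries, 239 and 236 with siLINC01534-1, and 229.8 and 219 with siLINC01534-2. Its libraries were lower with each siRNA, but neither difference passed. SRSF9 overlaps GATC on the opposite strand, which was at 13.8 FPKM in parent. The difference was -0.06 with siLINC01534-1 (95% interval -0.16 to 0.04) and -0.14 with siLINC01534-2 (limma, adjusted p = 0.054), where it passed under both other scalings (limma, adjusted p = 0.05 and 0.01).

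SRSF4, SRSF5 and SRSF6 are related SR proteins that also have a pair of RNA recognition motifs. SRSF6 was at 130.2 and 127 FPKM in the parent libraries, 93.9 and 97.7 with siLINC01534-1, and 118 and 119 with siLINC01534-2. The siLINC01534-1 libraries stood well below the other 4, with a difference from parent of -0.42 ± 0.036 (limma, adjusted p = 0.0006). With siLINC01534-2 it was -0.12 ± 0.036 (limma, adjusted p = 0.072). SRSF5 was at 136 and 138 FPKM in the parent libraries, 118 and 118 with siLINC01534-1, and 142 and 134 with siLINC01534-2. Only its siLINC01534-1 libraries stood apart, at -0.22 ± 0.038 (limma, adjusted p = 0.0068), and the siLINC01534-2 libraries lay on both sides of parent, at 0.01 (95% interval -0.09 to 0.1). SRSF4 was at 50.1 and 54.9 FPKM in the parent libraries, 47.0 and 47.9 with siLINC01534-1, and 47.0 and 44.6 with siLINC01534-2. All 4 siRNA libraries were below parent, at -0.14 (limma, adjusted p = 0.085) and -0.19 (limma, adjusted p = 0.06), and neither passed. The difference with siLINC01534-1 was -0.21 and passed without parent replicate 1 (limma, adjusted p = 0.046), and it was -0.078 without parent replicate 2. With siLINC01534-2, SRSF4 passed when scaled to 1 sum without short RNA genes (limma, adjusted p = 0.017).

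SRSF10, which represses splicing when dephosphorylated after heat shock, had the most negative log2 difference of the members with siLINC01534-1. It was at 33.4 and 32.8 FPKM in the parent libraries, 23.9 and 23.5 with siLINC01534-1, and 30.0 and 30.1 with siLINC01534-2. The 3 groups lay apart. The difference was -0.47 ± 0.037 with siLINC01534-1 (limma, adjusted p = 0.00048), 0.716 times the parent mean, and -0.13 ± 0.037 with siLINC01534-2 (limma, adjusted p = 0.053), where it passed with a filter of 5 FPKM (limma, adjusted p = 0.037). SRSF11, a more distant relative, was at 83.1 and 79.4 FPKM in the parent libraries, 79.8 and 75.9 with siLINC01534-1, and 78.6 and 74.7 with siLINC01534-2. Its differences were -0.06 (95% interval -0.18 to 0.06) and -0.08 (95% interval -0.2 to 0.04).

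The siRNAs were next compared with each other, a comparison that does not use the parent libraries for its means. In 7 of 10 members, SRSF1, SRSF2, SRSF3, SRSF5, SRSF6, SRSF7 and SRSF10, the FPKM was lower with siLINC01534-1 than with siLINC01534-2 past the threshold, beside 22.3% of tested genes. The libraries of these 7 did not overlap, which 36.9% of tested genes also showed in this direction. The log2 difference was -0.33 ± 0.037 for SRSF10 (limma, adjusted p = 0.0019), -0.3 ± 0.036 for SRSF6 (limma, adjusted p = 0.0022) and -0.23 ± 0.038 for SRSF5 (limma, adjusted p = 0.0072). For SRSF1, SRSF2, SRSF3 and SRSF7 it was -0.12 to -0.16. SRSF4, SRSF9 and SRSF11 did not pass, at 0.05 (95% interval -0.09 to 0.19), 0.08 (-0.01 to 0.18) and 0.02 (-0.1 to 0.14). Leaving out 1 library at a time gave -0.34 to -0.32 for SRSF10, -0.33 to -0.28 for SRSF6 and -0.27 to -0.19 for SRSF5. It gave -0.14 to -0.1 for SRSF1, -0.17 to -0.15 for SRSF2, -0.14 to -0.12 for SRSF3 and -0.18 to -0.15 for SRSF7. The calls of SRSF1, SRSF2, SRSF3 and SRSF7 were each lost without some siRNA library, where fewer of all tested genes passed as well. When scaled to 1 sum without short RNA genes, SRSF9 was higher with siLINC01534-1 than with siLINC01534-2 (0.11, limma, adjusted p = 0.019), and SRSF1 and SRSF3 did not pass.

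With the mean of both siRNAs against parent, 7 of 10 members were lower past the threshold, beside 20.1% of tested genes. They were SRSF1, SRSF2, SRSF3, SRSF4, SRSF6, SRSF7 and SRSF10. The call of SRSF4 (-0.17, limma, adjusted p = 0.042) was lost without parent replicate 2 (-0.1), without any 1 of the 4 siRNA libraries, without a filter on low values and without the trend (adjusted p 0.063 to 0.2). That of SRSF1 was lost without either parent library (limma, adjusted p = 0.055 and 0.057). When the 4 siRNA libraries were taken as 1 group, which makes their difference part of the error, 0 of 10 passed in limma, where calls fell across all tested genes to 2.96%, and to 0.819% for lower genes. At an unadjusted p under 0.05, 4 did, and the share of all tested genes at that level was not counted. The lowest adjusted p in this limma fit was 0.074, for SRSF3.

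The other genes of the pathway were counted in 5 lists in the comparison of the siRNA mean with parent. Across all tested genes 17.1% were higher and 20.1% lower past the threshold, and the median log2 difference was -0.0068. Among the kinases, the phosphatase and the import factors of SR proteins, 2 of 13 tested genes were higher and 5 lower, with a median of -0.093. CLK1, a kinase that phosphorylates SR proteins in the nucleus, was at 24.9 and 25.4 FPKM in the parent libraries, 36.2 and 36.98 with siLINC01534-1, and 31.6 and 31.4 with siLINC01534-2. It was higher in 4 of 4 siRNA libraries, at 0.42 ± 0.032 (limma, adjusted p = 0.00072). The related kinase CLK4 was also higher (0.31, limma, adjusted p = 0.039). That call was lost without any 1 of parent replicate 2 and the siRNA libraries, and without a filter on low values. CLK4 did not pass with siLINC01534-2 alone (0.26, limma, adjusted p = 0.12). SRPK1, the main cytoplasmic SR kinase, was lower, at -0.23 ± 0.04 (limma, adjusted p = 0.0088). This call was lost without parent replicate 1 (limma, adjusted p = 0.063), and SRPK1 did not pass with siLINC01534-2 alone (limma, adjusted p = 0.052). PPP1CA, a catalytic subunit of protein phosphatase 1, was lower at -0.44 ± 0.051 (limma, adjusted p = 0.0025). It was at 0.598 times parent with siLINC01534-1 and 0.907 times parent with siLINC01534-2, where it did not pass (limma, adjusted p = 0.15).

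Among other SR and SR-related proteins, 3 of 34 tested genes were higher and 14 lower, with a median of -0.07. SRSF8, a copy of SRSF2 whose reads may be shared with it, was at 14.1 and 14.4 FPKM in the parent libraries, 7.57 and 8.01 with siLINC01534-1, and 11.7 and 11.7 with siLINC01534-2. Its groups lay apart, at -0.53 ± 0.044 (limma, adjusted p = 0.0009). THRAP3 was lower at -0.32 ± 0.032 (limma, adjusted p = 0.0017). CCNL2 and CCNL1, cyclins with an arginine-serine domain, were higher at 0.5 ± 0.05 and 0.21 ± 0.045 (limma, adjusted p = 0.0016 and 0.016). The call of CCNL1 was lost without parent replicate 2 (0.15) or either siLINC01534-1 library (limma, adjusted p 0.051 to 0.078).

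The hnRNP proteins, which often oppose SR proteins at splice sites, had 0 of 27 genes higher and 21 lower, with a median of -0.22. In limma, 0 of 27 were also higher at an unadjusted p under 0.05. The share of all tested genes at that level was not counted. HNRNPA3 was at 139 and 139 FPKM in the parent libraries, 50.6 and 51.0 with siLINC01534-1, and 125 and 119 with siLINC01534-2. Its siLINC01534-1 libraries stood far below the others, at -1.44 ± 0.036 (limma, adjusted p = 2.8e-05), against -0.19 ± 0.036 with siLINC01534-2 (limma, adjusted p = 0.02). HNRNPM was lower with both, at -0.47 ± 0.031 for their mean (limma, adjusted p = 0.0005).

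Of the genes of nonsense-mediated decay and the exon junction complex, 0 of 16 were higher and 4 lower, with a median of -0.11. The shares over all tested genes were 17.1% higher and 20.1% lower. With siLINC01534-1 alone 8 of the 16 were lower and 1 higher, beside 2992 lower and 2662 higher of all 12203 tested genes. With siLINC01534-2 alone 1 of the 16 was lower and 1 higher, beside 1437 lower and 1351 higher of all tested genes. EIF4A3, the core helicase of the exon junction complex, and UPF1, the helicase of nonsense-mediated decay, were lower at -0.35 ± 0.032 and -0.27 ± 0.038 (limma, adjusted p = 0.0012 and 0.0045). UPF1 did not pass with siLINC01534-2 alone (-0.12, limma, adjusted p = 0.11). Of the U1 and U2 snRNP and Sm core genes, 0 of 24 were higher and 14 lower, with a median of -0.19. SNRPD1, a protein of the Sm core, was lower at -0.35 ± 0.036 (limma, adjusted p = 0.0017). SF3A3, a subunit of the U2 snRNP, was lower at -0.31 ± 0.033 (limma, adjusted p = 0.0019), and it differed more with siLINC01534-2 (-0.49) than with siLINC01534-1 (-0.13). At an unadjusted p under 0.05, limma gave 0 higher genes of 16 in the decay list and 1 of 24 in the snRNP list. The share over all tested genes was not counted here either. With the siRNA libraries as 1 group, 2 hnRNP genes and 1 SR-related gene passed, and 0 in the other lists, beside 2.96% of all tested genes. SRPK3 and SRSF12 were under the expression filter, with at most 0.551 and 0.0282 FPKM.

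**Figure D3:**
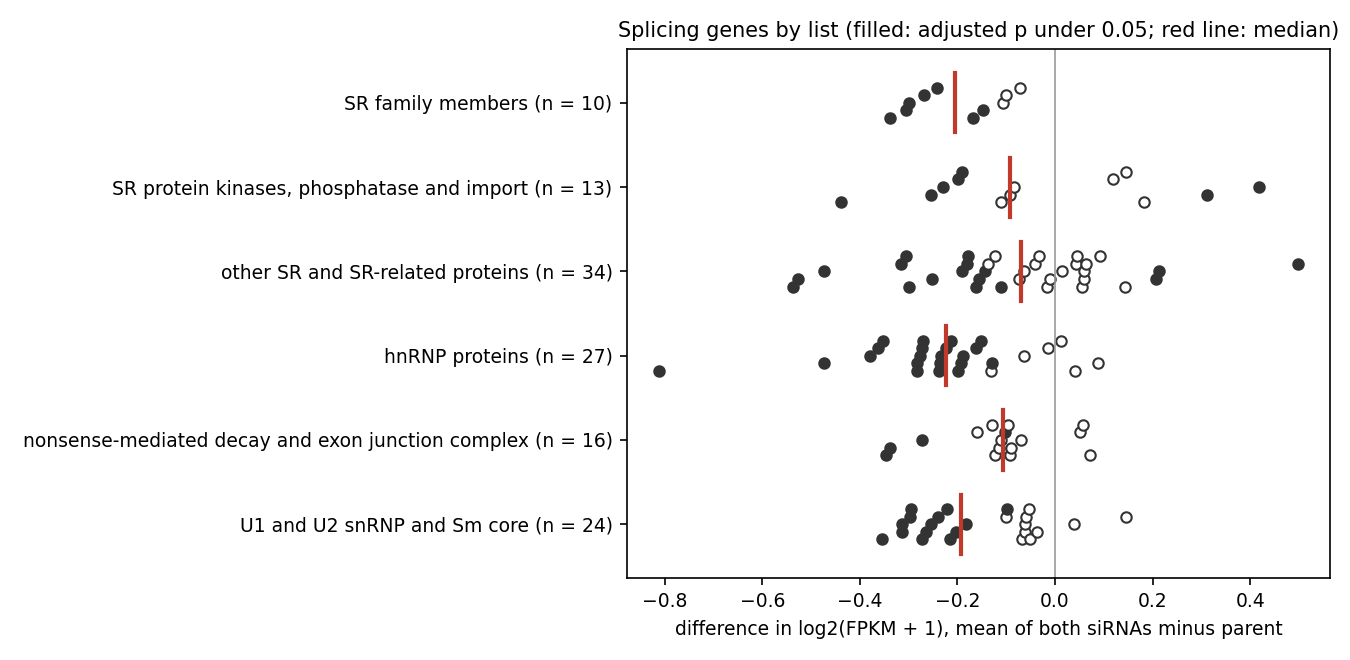
Difference in log2(FPKM + 1) of the siRNA mean from parent (horizontal axis) for the tested genes of the SR family and of 5 lists of splicing genes. Each point is a gene, filled where the adjusted p is under 0.05, and the red line is the median, at -0.22 for the 27 hnRNP genes.

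The genes outside the family whose log2(FPKM + 1) followed the mean of the 10 members most closely over the 6 libraries were SAPCD2, HIRA, TUBA1B, LDHA and PTMA, with Pearson r from 0.9992 to 0.9996 among 6881 genes that averaged 10 FPKM or more. This is a description over 6 libraries in 3 groups, chosen as the highest values of many. The mean log2(FPKM + 1) of the members was 6.85 and 6.86 in the parent libraries, 6.59 and 6.58 with siLINC01534-1, and 6.73 and 6.70 with siLINC01534-2. TUBA1B, an alpha-tubulin, was at 874 ± 25.3 FPKM in parent, 548 ± 10.8 with siLINC01534-1 and 685 ± 22.0 with siLINC01534-2 (SD, n = 2).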

How the data were processed

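RNA of HCT116 cells was sequenced in 6 libraries, 2 for each of the 3 groups given by the labels. The authors prepared stranded poly(A) libraries, mapped the reads to hg19 with TopHat2 2.0.13, Bowtie2 2.2.3 and SAMtools 0.1.19, and deposited the FPKM that Cuffnorm of Cufflinks 2.2.1 gave for each gene. The annotation and the strand setting of the counting are not given in the sources used here. The labels give 2 libraries per group, while the methods speak of triplicate cultures, and they also name different RNA extraction kits.

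The deposited FPKM were transformed to log2(FPKM + 1). Genes averaging 1 FPKM or more over the 6 libraries were tested with limma 3.58.1 in R 4.3.3 (lmFit, contrasts.fit, eBayes with trend). All 6 libraries entered the fit, with 4 contrasts and Benjamini-Hochberg adjustment over all tested genes at 0.05, two-sided. Ratios are of mean FPKM without a pseudocount. The script was tested on simulated data. The members, the 5 lists and the tests were chosen with earlier results of these data known. Named from each list were up to 2 genes with the largest increase and up to 2 with the largest decrease among those past the threshold whose 4 siRNA libraries were all above or all below the parent libraries. The 5 genes most like the family by Pearson r were also named. Depth was estimated from steps between low values, with 200 nt taken off the transcript length. It covers counting error only. Gene models and sequences came from GENCODE on GRCh37. Python 3.11.15, pandas 2.3.3, numpy 2.4.6 and matplotlib 3.10.9 were used.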

Additional observations from a re-analysis of the deposited data

Results flagged for a closer look

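The siRNAs differed from each other, by the limma test of siLINC01534-1 minus siLINC01534-2, in 7 of the 10 SR genes. Among all 12203 tested genes, 5096 passed in this comparison, 2722 of them lower. The log2 difference was -0.12 for SRSF1, -0.16 for SRSF2, -0.13 for SRSF3, -0.23 for SRSF5, -0.3 for SRSF6, -0.16 for SRSF7 and -0.33 for SRSF10. Among the named genes of the splicing lists it was -0.6 for PPP1CA, -0.53 for SRSF8, -1.25 for HNRNPA3, -0.13 for HNRNPM, -0.27 for EIF4A3, -0.3 for UPF1 and -0.19 for SNRPD1. It was above 0 for CLK1 (0.21), CCNL2 (0.38) and SF3A3 (0.36). CLK1 and CCNL2 were higher than parent with each siRNA, and SF3A3 was lower than parent with each.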

How the results depend on the processing

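With the siRNA libraries as 1 group, limma called 361 of all 12203 tested genes (100 lower) in place of 4541, and 0 SR genes (4 at an unadjusted p under 0.05), 0 genes of the kinase list (4), 1 SR-related gene, 2 hnRNP genes, 0 decay genes (1) and 0 snRNP genes (8). Shares of all tested genes at an unadjusted p were not counted. Scaling to 1 sum without short RNA genes raised the count of SR genes with siLINC01534-2 from 3 to 5, adding SRSF4 and SRSF9. Lower calls over all tested genes rose there from 1437 of 12203 to 1791 of 11966. The difference of SRSF5 turned there to -0.003. That difference was also -0.004 without parent replicate 1 and -0.035 without siLINC01534-2 replicate 1, and at most 0.047 without 1 library. SRSF11 between the siRNAs was -0.015 without siLINC01534-1 replicate 1 and also without siLINC01534-2 replicate 2, and at most 0.057 without 1 library. Leaving out 1 library at a time gave 7 to 8 SR genes with siLINC01534-1, 1 to 3 with siLINC01534-2, 5 to 7 for the mean of both and 3 to 7 between the siRNAs. It gave 4 to 6 genes for the kinase list (4 without parent replicate 2 or siLINC01534-1 replicate 2), 9 to 15 for the SR-related list (9 without parent replicate 2), 14 to 20 for the hnRNP list, 3 for the decay list and 9 to 13 for the snRNP list (9 without either parent library). In each of these runs fewer of all tested genes passed than with all 6 libraries. A group left with 1 library was assumed to vary like the others. Libraries of the same replicate number had weakly correlated deviations from their group means (0.114, 0.027 and -0.046). This cannot show whether they were prepared together, and no label says so. With a replicate block, 7, 2, 6 and 6 SR genes passed with siLINC01534-1, siLINC01534-2, their mean and between the siRNAs. Beside them, 2738, 1005, 2126 and 2397 of all 12203 tested genes were lower past the threshold. The losses included SRSF2 with siLINC01534-2 (limma, adjusted p = 0.056) and SRSF4 for the mean (0.07). A pseudocount of 0.1, no filter on low values, a mean FPKM of at least 5, median-of-ratios scaling and eBayes without trend moved no count of SR genes by over 1.5 times. The cause of these shifts was not tested. With 2 libraries per group, precision is limited by their number.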
